A study of Saccharomyces cerevisiae with 4 samples.

Results

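Stable noncoding RNAs of budding yeast, 10 in number, were followed through inhibition of transcription. They were the spliceosomal small nuclear RNAs (snRNAs) U2 (LSR1), U1 (snR19), U4 (snR14), the long and short forms of U5 (snR7-L and snR7-S) and U6 (snR6), the RNA of the signal recognition particle (SCR1), the RNAs of RNase MRP (NME1) and RNase P (RPR1), and telomerase RNA (TLC1). The members were taken by their gene names, which gave 10 of the 7071 genes in each of 4 RNA-seq tables, and 10 of 10 passed the filter on low counts. RNA polymerase (Pol) II makes 7 of them, and Pol III makes the other 3, snR6, SCR1 and RPR1. All cultures were wild-type W303 cells (strain CB67) held in G2/M with benomyl (80 µg/ml, 90 min). They were then given either the solvent DMSO (2 libraries, a and b) or thiolutin, an inhibitor of transcription, at 20 µg/ml for 30 min (2 libraries, a and b). Before RNA extraction, cells from 5 ml of a Schizosaccharomyces pombe culture were added to those from 45 ml of each budding yeast culture as a spike-in. No source used here says that the letters mark independent cultures, so p-values measure only the spread between these libraries.

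The spliceosome removes introns from precursor mRNA with 5 snRNAs. U1 pairs with the 5′ splice site and U2 with the branch site, U4 holds U6 in an inactive pairing until the spliceosome is activated, and U5 contacts the exon ends. SCR1 is the scaffold of the particle that targets nascent secretory proteins to the endoplasmic reticulum. RPR1 and NME1 are the catalytic RNAs of related ribonucleoproteins that cut precursor tRNA and precursor rRNA, and TLC1 carries the template for telomere repeats. Pol II starts and stops differently from Pol III, which terminates in runs of T and at some genes is recruited through the A and B box promoter elements bound by TFIIIC.

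Parts of the RNAs that tie them to these roles are printed as DNA letters of the RNA strand, 5′ to 3′, from the RefSeq R64 (sacCer3) genome, with positions counted from 1 at the 5′ end of each RNA. The first pair are the stretches of U1 and U2 that pair with introns, with the pairing bases in capitals. The U1 stretch is the first 30 bases of snR19 (chrXIV:230643-230672, minus strand) and the U2 stretch is bases 21 to 50 of LSR1 (chrII:681813-681842, minus strand).
snR19: atACTTACCTtaagatatcagaggagatca
LSR1: gcttagatcaagtGTAGTAtctgttctttt

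The U5 gene is shown whole because its RNAs come in a pair of lengths that share a 5′ end (chrVII:939459-939672, minus strand). The short form ends after base 179, and the 35 bases of the long form's 3′ extension are in capitals.
snR7-L: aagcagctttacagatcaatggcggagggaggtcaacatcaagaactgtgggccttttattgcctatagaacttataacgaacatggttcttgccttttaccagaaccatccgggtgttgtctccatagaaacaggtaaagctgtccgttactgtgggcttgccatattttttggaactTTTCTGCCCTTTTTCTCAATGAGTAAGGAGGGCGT

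Most Pol II snRNAs and TLC1 are bound by a ring of Sm proteins at a short T-rich site. The letters ATTTTTG or ATTTTTTG were searched on the RNA strand and are in capitals here. They were present in 6 of the 7 Pol II members, among them both forms of U5 by the same match, the exception being NME1, and in none of the 3 Pol III members. In windows as long as each RNA, cut from genes of at least that length, the letters were found in between 2.46% (112 bases) and 29.4% (1301 bases). A match is a description and not a mapped site, and snR19, LSR1 and TLC1 hold 3, 2 and 4 matches.
snR19 (chrXIV:230105-230130, minus): ggatcttataATTTTTGatttatttt
LSR1 (chrII:681732-681761, minus): tacaatacacATTTTTTGgcacccaaaata
snR14 (chrV:167427-167453, minus): tatgtagggaATTTTTGgaataccttt
snR7-L (chrVII:939487-939516, minus): ggcttgccatATTTTTTGgaacttttctgc
TLC1 (chrII:308729-308758, plus): catttagataATTTTTGgaaacattttttt

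U6, the shortest member, is shown whole (chrXII:366235-366346, plus strand) with the ACAGAGA box, which replaces U1 at the 5′ splice site, in capitals at bases 47 to 53. The RNA ends in a run of T.
snR6: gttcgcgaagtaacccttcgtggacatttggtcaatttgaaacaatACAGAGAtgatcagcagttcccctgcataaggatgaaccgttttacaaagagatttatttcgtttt
The snoRNA snR52, which guides methylation of rRNA, is a further product of Pol III and is not a member. It is shown whole for comparison with U6 (chrV:431129-431220, minus strand), because both are short.
snR52: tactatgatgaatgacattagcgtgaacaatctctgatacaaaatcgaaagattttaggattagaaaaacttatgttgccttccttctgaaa
The letters GTTCGA, the core of the B box, were searched on both strands from 150 bases before to 300 after each start. Among the 10 members only snR6 had them, downstream of the RNA at base 235. Of 6430 genes, 16.0% had them on either strand in the same window. The match there runs on as GTTCGAAC, which reads the same on both strands. In snR52 the letters began 35 bases before the first base of the RNA. Only these exact letters were searched, so a gene without a match is not shown to lack a B box.
snR6 downstream (chrXII:366457-366486, plus): aaattgtctcgcGTTCGAacctaagccttt
snR52 upstream (chrV:431238-431267, minus): gcatgtttcggcGTTCGAaacttctccgca

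The libraries differed in depth. Expected counts summed to 27262771 in DMSO a, 48045781 in DMSO b, 38613462 in thiolutin a and 11598766 in thiolutin b, and the members took between 2.76% and 3.80% of them. Thiolutin b had the fewest counts and stood apart for short RNA. Its tRNA counts were 105 per 1000000 S. pombe reads, against 413 in DMSO a, 571 in DMSO b and 454 in thiolutin a. Values of the members, snoRNAs and tRNAs without this library are given beside the results it changes. Counts and S. pombe reads together came to between 113% and 120% of the reads sequenced, so some reads were counted for both species, and the part of such reads in each value was not tested.

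Per length, SCR1 stood far above the other members and TLC1 far below. With DMSO, SCR1 had 5099 ± 664 transcripts per 1000000 (TPM, SD, n = 2). RPR1 followed at 819 ± 97.6, snR7-L at 731 ± 86.5, snR7-S at 725 ± 55.8, snR19 at 715 ± 101, LSR1 at 713 ± 104 and NME1 at 600 ± 71.2 TPM. These 6 differed from their neighbours in the order by less than the range between the libraries, so the levels of U1, U2 and each form of U5 did not differ beyond their spread. Below NME1 the order was clear of the spread, with snR14 at 243 ± 22.4, snR6 at 192 ± 7.17 and TLC1 at 7.53 ± 0.34 TPM. SCR1 alone held between 56.4% and 64.9% of all counts on members in the 4 libraries. TPM divides by an effective length, which is 47.5 bases for snR6 and 1236 bases for TLC1. With counts per kilobase of annotated length, 5 of the 10 kept their rank.

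**Figure D1:**
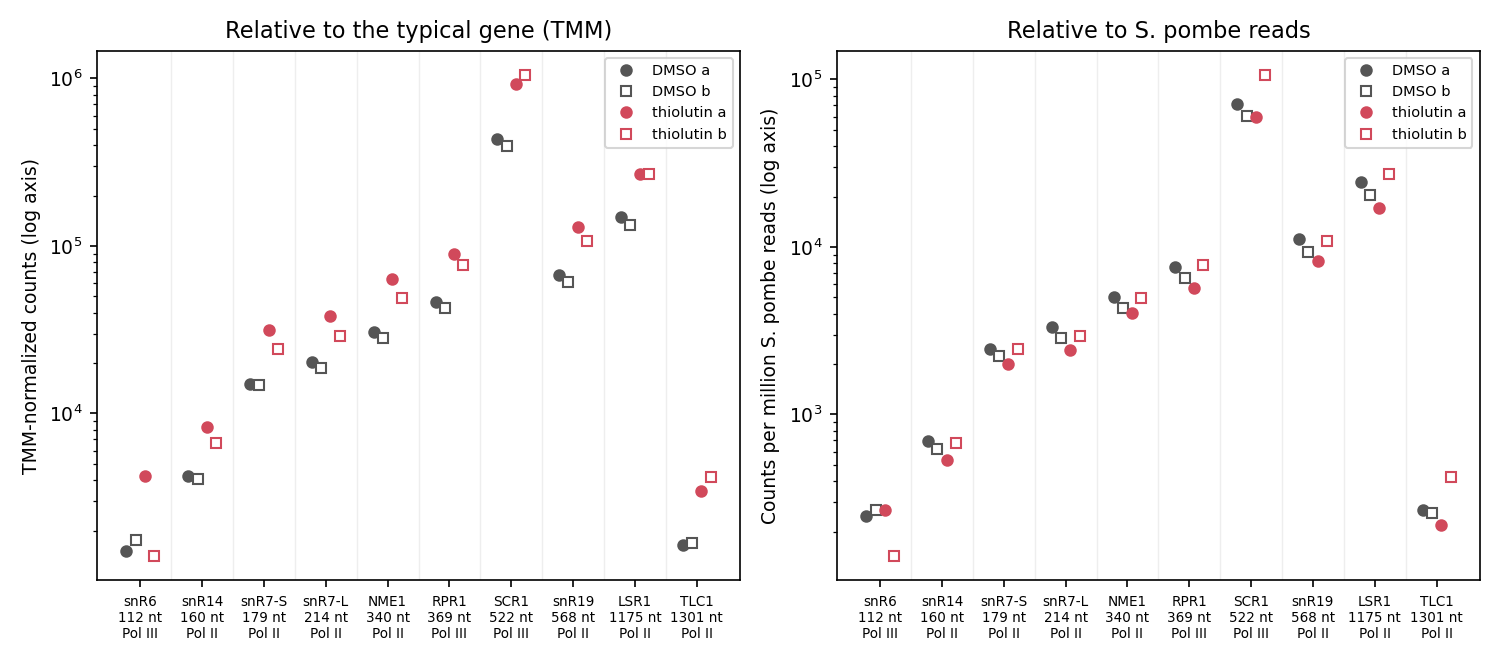
Each member's value in the 4 libraries, ordered by RNA length, as TMM-normalized counts (left) and as counts per 1000000 S. pombe reads (right), both on log axes, with circles for replicate letter a and open squares for b. On the left both thiolutin points (red) lie above both DMSO points (grey) for 9 of 10 members, and on the right thiolutin and DMSO points overlap for 10 of 10.

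Relative to the typical gene, the stable RNAs rose with thiolutin. TMM normalization sets the scale so that most genes do not move on average, and on it the median log2 fold change over all 5527 genes tested was -0.02. By edgeR's quasi-likelihood test, 9 of 10 members were higher at an adjusted p under 0.05 and 0 were lower, beside 18.5% of all genes higher and 17.6% lower. The 9 included all 7 Pol II members and 2 of the 3 Pol III members, SCR1 and RPR1. The groups did not overlap for the same 9, beside 33.2% of all genes with both thiolutin libraries higher and 36.7% with both lower. At the study's stricter threshold of 1e-05 no member passed this test, while 44 genes were higher and 11 lower. At an unadjusted p under 0.05 all 10 members passed it. The outcome at 1e-05 depends on the test. By edgeR's likelihood ratio test SCR1 (adjusted p = 3.8e-08) and TLC1 (1.1e-10) were under 1e-05, and the other members were not. By the Wald test of DESeq2 every member but snR6 (adjusted p = 0.462) was under it. The median log2 fold change of the members was 0.90.

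The snRNAs that recognise the intron moved by similar amounts. U1 (snR19) had 67525 and 60661 TMM-normalized counts in DMSO a and b, and 129489 and 106635 in thiolutin a and b. Both thiolutin libraries lay above both DMSO libraries, and the log2 fold change was 0.88 (SE 0.21, adjusted p = 0.00830). U2 (LSR1) had 149032 and 133159 normalized counts with DMSO and 268282 and 270262 with thiolutin. The thiolutin libraries were nearly level for U2, and its log2 fold change was 0.93 (SE 0.22, adjusted p = 0.00758).

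U4 and U5, which join the spliceosome with U6 as one particle, rose as well. U4 (snR14) had 4219 and 4065 normalized counts with DMSO and 8351 and 6635 with thiolutin, a log2 fold change of 0.86 (SE 0.17, adjusted p = 0.00276). The long form of U5 had 20206 and 18762 normalized counts with DMSO and 38273 and 29132 with thiolutin (log2 fold change 0.79, SE 0.20, adjusted p = 0.00978). The short form had 14932 and 14704 with DMSO and 31454 and 24101 with thiolutin (log2 fold change 0.91, SE 0.19, adjusted p = 0.00413). For both RNAs the groups did not overlap, and thiolutin a was the higher of the treated pair. The forms share 179 bases, so the authors' software divided most of their reads by estimate, and their separate values are uncertain. The ratio of long to short form in TPM was 1.04 and 0.977 with DMSO and 0.932 and 0.926 with thiolutin. The treated libraries were the lower pair, with an exact two-sided permutation p of 0.333 before adjustment, the smallest that 2 against 2 allows, in a family of 12 ratios of which 5 did not overlap.

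U6 was the exception among the snRNAs. snR6 had 1514 and 1753 normalized counts with DMSO, 4229 in thiolutin a and 1402 in thiolutin b. Thiolutin a was thus the highest and thiolutin b the lowest of the 4 libraries. The log2 fold change was 0.80 with an SE of 0.36 (adjusted p = 0.104), within a range of adjusted p from 9.9e-23 to 0.462 over the alternatives tried. Without thiolutin a it was -0.22, and without thiolutin b it was 1.35 and past the threshold. It also passed with no filter on low counts (adjusted p = 0.00229).

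SCR1 showed the largest rise of the members. It had 434682 and 396718 normalized counts with DMSO and 932723 and 1051218 with thiolutin. The thiolutin libraries were more than their own spread above the DMSO libraries, with a log2 fold change of 1.25 (SE 0.25, adjusted p = 0.00325). RPR1, the RNase P RNA, had 46119 and 42765 normalized counts with DMSO and 89010 and 76952 with thiolutin (log2 fold change 0.90, SE 0.20, adjusted p = 0.00554). NME1, its Pol II-made relative in RNase MRP, had 30569 and 28363 with DMSO and 63591 and 48921 with thiolutin (log2 fold change 0.93, SE 0.21, adjusted p = 0.00512). The ratio of RPR1 to NME1 in TPM was 1.37 and 1.36 with DMSO and 1.27 and 1.42 with thiolutin, so the DMSO libraries fell between the treated ones.

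TLC1 had the smallest p of the members. Its normalized counts were 1638 and 1688 with DMSO and 3452 and 4173 with thiolutin, and the log2 fold change was 1.19 (SE 0.16, adjusted p = 2.7e-04). TLC1 was the 1 member that still passed when either DMSO library was left out, while without either thiolutin library 9 or 10 members passed. With only genes of at least 50 counts in every library 5 members passed, and with library totals in place of TMM none did. Between 80.8% and 86.6% of the library totals was rRNA.

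The spike-in gave another scale. S. pombe cells were added in a fixed volume, but some reads were counted for both species. Counts and S. pombe reads together were between 113% and 120% of the reads sequenced. Counts per S. pombe read are thus only in part relative to the added cells. Fewer cells, less RNA per cell and a differing share of such reads cannot be told apart on this scale. On it the median over all genes was -1.01 as log2 fold change and 50.7% of all genes were lower, beside 1.47% higher. None of the 10 members passed in either direction, at an adjusted or at an unadjusted p under 0.05, by edgeR's quasi-likelihood test. The groups overlapped for all 10, beside 75.7% of all genes with both thiolutin libraries lower and 2.48% with both higher. The rescaling moves all genes together, so the distance of the members from the typical gene is nearly the same on both scales by construction.

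The intervals show how much change the data leave possible. Per S. pombe read, the log2 fold change was -0.10 for U1 (95% interval -0.63 to 0.44), -0.01 for U2 (-0.48 to 0.46) and -0.13 for U4 (-0.88 to 0.63). It was -0.20 for the long form of U5 (-0.83 to 0.44) and -0.08 for the short form (-0.73 to 0.57). For U6 it was -0.32, with a wide interval of -1.14 to 0.49. SCR1 stood highest at 0.33 (-0.06 to 0.71) and TLC1 next at 0.28 (-0.52 to 1.09). RPR1 was at -0.07 (-0.63 to 0.50) and NME1 at -0.06 (-0.65 to 0.54).

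**Figure D2:**
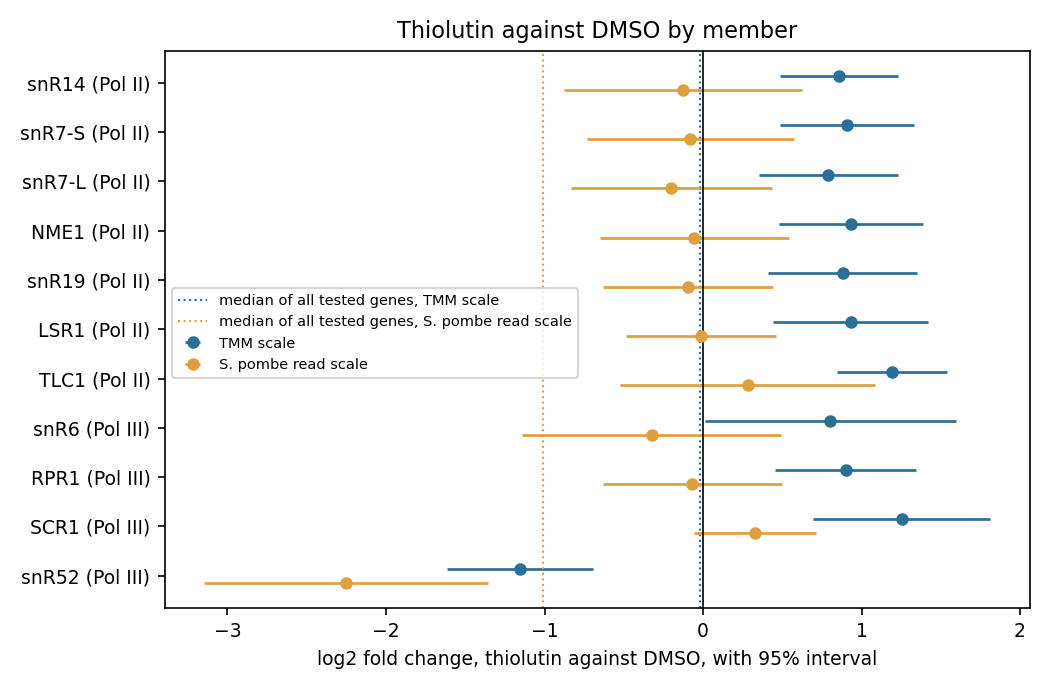
Log2 fold change of thiolutin against DMSO (x axis) for the 10 members and for snR52, with 95% intervals from edgeR, on the TMM scale (blue) and per S. pombe read (orange), with dotted lines at the median of all genes tested, -0.02 and -1.01. On the TMM scale the members lie between 0.79 and 1.25, on the S. pombe scale their intervals all include 0, and snR52 lies below 0 on both.

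On the spike-in scale the letters went opposite ways. Between the libraries of letter a, the 9 members other than snR6 were lower with thiolutin, by log2 values from -0.52 (LSR1) to -0.27 (SCR1), with a median of -0.38. Between those of letter b, the same 9 were higher, from 0.04 (snR7-L) to 0.81 (SCR1), with a median of 0.22. For protein-coding genes these medians were -1.40 and -0.65, so the shift between letters was shared by mRNA. U2 had 24532 and 20356 counts per 1000000 S. pombe reads with DMSO, 17114 in thiolutin a and 27396 in thiolutin b. Leaving out thiolutin a brought 2 members past the threshold as higher, SCR1 at 0.69 and TLC1 at 0.68, and snR6 as lower at -0.86, and leaving out thiolutin b brought LSR1 at -0.39 and snR7-L at -0.34 past it as lower. On the TMM scale the medians of the 9 were 0.99 for a and 0.81 for b.

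A measure free of the scale is the members' sum against mRNA in the same library. Per 100 counts on protein-coding genes, the members had 27.0 in DMSO a, 24.7 in DMSO b, 44.1 in thiolutin a and 46.9 in thiolutin b. Both thiolutin libraries were higher than both DMSO libraries. SCR1 alone held between 56.4% and 64.9% of the members' counts, so this sum is largely SCR1, and it was not computed without it.

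Pol III and Pol II transcripts did not separate as groups. The median log2 fold change was 0.90 for the 3 Pol III members and 0.91 for the 7 Pol II members on the TMM scale, and -0.07 and -0.08 on the spike-in scale. The difference of the medians was -0.01 and 0.01, and over the alternatives, which included leaving out SCR1, LSR1 or snR6 and comparing pairs of like length, it lay between -0.06 and 0.17 on the TMM scale. The spread within the Pol III members, from 0.80 to 1.25, covered the whole range of the Pol II members except snR7-L at 0.79.

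Within libraries, the summed Pol III signal was higher with thiolutin only when SCR1 was in it. The sum of TPM over Pol III members divided by that over Pol II members was 1.64 and 1.63 with DMSO and 1.79 and 2.32 with thiolutin. The treated libraries were higher, with an exact two-sided permutation p of 0.333, the smallest possible here. Without SCR1 the ratio was 0.266 and 0.277 with DMSO and 0.282 and 0.254 with thiolutin, and the groups overlapped. Against U1, a Pol II transcript of like length, SCR1 stood at a TPM ratio of 7.08 and 7.20 with DMSO and 7.93 and 10.8 with thiolutin. Against RPR1, also made by Pol III, it stood at 6.27 and 6.17 with DMSO and 6.97 and 9.09 with thiolutin. SCR1 was thus higher with thiolutin relative to U1 and to RPR1, and more so in letter b. This does not hold for every member. TLC1, made by Pol II, rose nearly as much on the TMM scale, by log2 values of 1.08 for a and 1.31 for b. Those of SCR1 were 1.10 and 1.41.

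Per S. pombe read, U6, the shortest member, went the opposite way to the other 9 in each letter. The TPM ratio of U6 to U4, its pairing partner, was 0.722 and 0.867 with DMSO, 1.02 in thiolutin a and 0.425 in thiolutin b. Thiolutin a was the highest and thiolutin b the lowest, so the ratio did not move one way with the drug. In counts per S. pombe read, snR6 changed by a log2 value of 0.11 for letter a and -0.92 for letter b. Among snoRNA genes with a mean of at least 50 counts, the 19 of 82 to 109 nucleotides had medians of -0.26 for a and -1.33 for b, and 19 of 19 were lower in b. The 19 snoRNAs of 124 to 197 nucleotides had medians of -0.29 and 0.17, and the 20 of 201 to 1004 nucleotides -0.30 and 0.24. The part of RNA length in the value of snR6 was not tested.

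**Figure D3:**
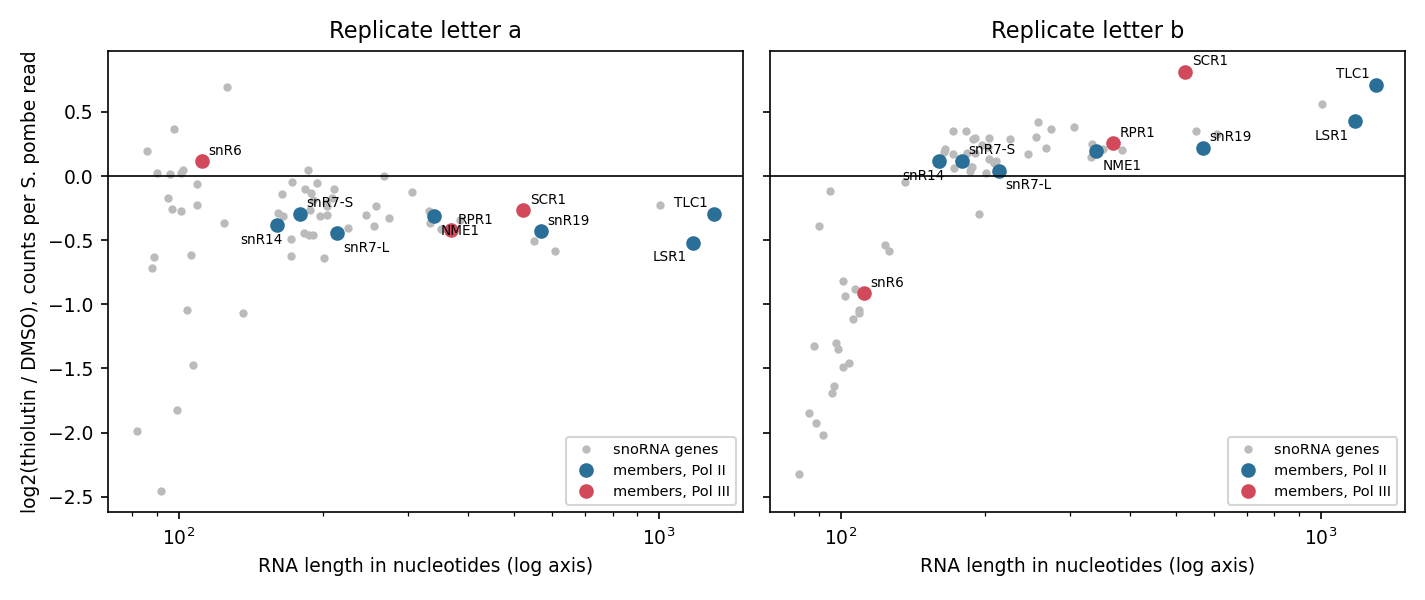
Log2 ratio of thiolutin to DMSO in counts per S. pombe read (y axis) against RNA length (x axis, log) for the members (blue Pol II, red Pol III) and snoRNA genes with a mean of at least 50 counts (grey), in letter a (left) and letter b (right). In letter b the 19 snoRNAs of 82 to 109 nucleotides and snR6 (-0.92) lie below 0, while the other 9 members lie between 0.04 and 0.81.

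The other short Pol III transcript, snR52, was lower. Its expected counts were 599 in DMSO a, 798 in DMSO b, 177 in thiolutin a and 43 in thiolutin b. Its log2 fold change was -1.16 on the TMM scale (SE 0.21, adjusted p = 0.00172) and -2.25 per S. pombe read (adjusted p = 1.2e-05), and the groups did not overlap on either. Between letters the spike-in values were -2.46 for a and -2.02 for b. Expected counts of snR52 per count of snR6 were 0.350 and 0.241 with DMSO and 0.0588 and 0.113 with thiolutin, so these 2 Pol III products moved apart in each letter. Among the 19 short snoRNAs, of which snR52 is 1 and whose median in letter a was -0.26, snR67 (-1.99), snR47 (-1.82), snR51 (-1.47) and snR60 (-1.04) were also well below 0 in that letter, and snR67 was lower than snR52 in letter b (-2.33). These 4 were chosen after their values were seen. Other stable RNA classes were set beside the members, whose fold changes ranged from 0.79 to 1.25 on the TMM scale and from -0.32 to 0.33 on the spike-in scale. The 70 snoRNA genes tested had a median of 0.86 on the TMM scale and -0.17 on the spike-in scale, with 39 higher and 2 lower on the first and 0 higher and 14 lower on the second. After rRNA removal from the libraries, the medians for 25S rRNA were 1.24 and 0.30, and those for 18S rRNA 1.04 and 0.05. For 5S rRNA, a product of Pol III, they were 1.42 and 0.28. Its 6 genes ranged from 0.69 to 1.42 and from -0.32 to 0.28. The remaining rRNA class had medians of 0.95 and -0.06, with 0 of its 2 genes higher on either scale. Of these rRNA medians, only that of 5S on the TMM scale lay outside the range of the members. Of 275 tRNA genes 78 could be tested, with medians of 0.52 and -0.62, and 0 were higher and 1 lower on the TMM scale, and 0 higher and 10 lower on the spike-in scale. Without thiolutin b, an alternative chosen after the values were seen, 93 tRNA genes were tested. Their medians were then 1.00 and -0.28, with 54 higher and 3 lower on the TMM scale and 10 higher and 7 lower on the spike-in scale. The snoRNA medians without that library were 1.00 and -0.30 over 73 genes, with 51 higher and 2 lower and then 1 higher and 24 lower, and snR52 stood at -0.95 and -2.25.

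Genes for proteins that bind, make or process these RNAs were taken as 9 lists. Of 99 such genes, all tested, 11 were higher (11.1%) and 22 lower (22.2%) on the TMM scale, beside 18.5% higher and 17.6% lower among all genes, with a median log2 fold change of -0.25. The share of lower genes was near that background, and the counts of single lists are a description to be read against the same shares. Per S. pombe read, 0 were higher and 67 lower (67.7%), with a median of -1.27, beside 50.7% lower among all genes. In each list up to 2 of the highest and 2 of the lowest that passed are named here.

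The U1 and U2 lists hold protein partners of the intron-recognising snRNAs, while the Sm and Lsm list is not limited to partners of these. In the Sm and Lsm, U1 and U2 lists 7.1%, 33.3% and 18.2% of genes were lower, beside 17.6% of all genes. In each of them 0 were higher, beside 18.5% of all genes. Among 14 Sm and Lsm genes 1 was lower and 0 higher, with a median of -0.40. It was SME1, for the SmE subunit of the ring, with 134 and 118 normalized counts with DMSO and 50.6 and 51.4 with thiolutin (log2 fold change -1.30). Of 9 U1 genes 3 were lower and 0 higher (median -0.51). SNP1, the U1-70K homologue, was at -1.93 on 2 and 3 expected counts in the thiolutin libraries. NAM8, which helps U1 bind weak splice sites, was at -1.77 on 17 and 5. Of 11 U2 genes 2 were lower and 0 higher (median -0.29). MSL1, a U2 RNA-binding protein, was at -1.67 on 8 and 3 expected counts with thiolutin. HSH155, the SF3b subunit at the branch site, was at -0.74.

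The 15 genes of the U4/U6.U5 particle moved in both directions, with 2 higher and 2 lower (median -0.16). LIN1, of a U5-associated protein, had 42.5 and 56.7 normalized counts with DMSO and 178 and 143 with thiolutin, a log2 fold change of 1.70. PRP8, the large protein at the spliceosome's active site, was at 0.61. PRP24, which anneals U4 to U6, had 39.8 and 38.2 normalized counts with DMSO and 9.84 and 11.0 with thiolutin (-1.92), on 7 and 3 expected counts in the latter. PRP38, needed to activate the spliceosome, was at -1.37 on 11 and 4 expected counts with thiolutin.

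The signal recognition particle list was the one with most genes higher. Of 8 genes 4 were higher and 1 lower on the TMM scale (median 0.12), and 0 were higher and 4 lower per S. pombe read (median -0.85). SEC65, a particle subunit, had 238 and 268 normalized counts with DMSO and 485 and 400 with thiolutin (0.82), and SRP54, the subunit that binds signal sequences, was at 0.55. YKL154W, the gene for a subunit of the particle's receptor, fell from 469 and 427 to 212 and 150 normalized counts (-1.25).

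Of 11 genes of RNase P and MRP proteins 1 was higher and 4 lower (median -0.29). POP3 had 107 and 116 normalized counts with DMSO and 19.7 and 11.0 with thiolutin, a log2 fold change of -2.71 and the lowest of the 99 genes. Its thiolutin values rest on 14 and 3 expected counts. POP6 was at -2.26, on 6 and 0 expected counts in the thiolutin libraries, and POP5 was higher at 0.90. Among 8 telomerase and telomere genes 4 were lower and 0 higher (median -0.65). CDC13, which binds the single-stranded telomere end, was at -2.02 on 5 and 4 expected counts with thiolutin. EST1, a telomerase subunit, was at -1.04 on 21 and 7, beside TLC1 itself at 1.19.

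Of 11 Pol III initiation genes 2 were higher and 2 lower (median -0.18). BRF1, a subunit of TFIIIB, was at 0.56 and TFC3, the TFIIIC subunit that binds the B box, at 0.81. TFC4, of the same factor, was at -0.58. PZF1, the TFIIIA that serves the 5S rRNA genes, was at -1.58 on 29 and 6 expected counts with thiolutin. Of 12 genes for processing and surveillance of noncoding RNA 2 were higher and 3 lower (median -0.13). MTR4, the helicase of the nuclear exosome, was at 1.09, and LHP1, the La protein that binds the terminal U run of new Pol III transcripts, was at 0.61. USB1, which trims the 3′ end of U6, had 60.2 and 49.8 normalized counts with DMSO and 11.2 and 3.67 with thiolutin (-2.59). The latter rest on 8 and 1 expected counts. AIR1, of the complex that marks RNA for the exosome, was at -1.93.

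**Figure D4:**
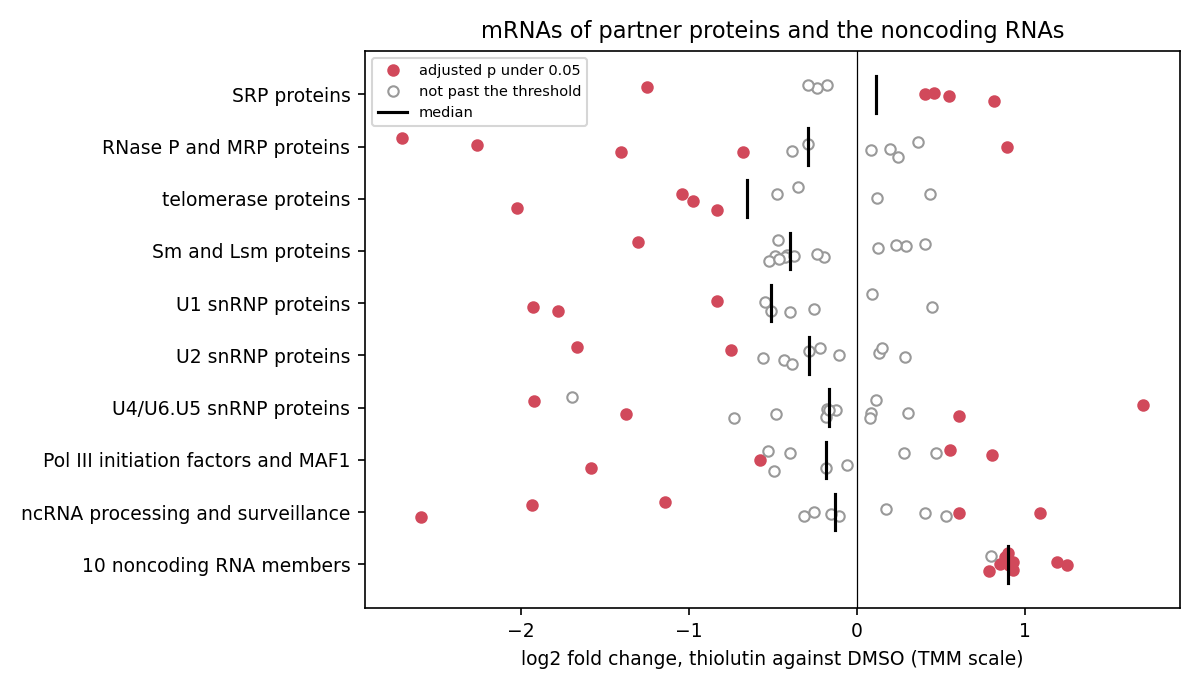
Log2 fold change of thiolutin against DMSO on the TMM scale (x axis) for each gene of the 9 lists and for the 10 members, with filled red points at an adjusted p under 0.05, open points otherwise and a bar at each median. The list medians lie between -0.65 (telomerase) and 0.12 (signal recognition particle), and that of the members is at 0.90.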

How the data were processed

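Total RNA depleted of large rRNA was sequenced as single-end, stranded reads. The authors mapped reads with STAR 2.7.3a and estimated gene levels with RSEM 1.3.1 for reverse-stranded reads, with Bowtie 1.2.2 for S. pombe, per the labels and the study's methods. The deposited tables hold expected counts, which are estimated reads without normalization, and TPM and FPKM values, which the authors' software adjusted for effective length and scaled to a fixed total. Reads shared by genes are divided by estimate. Lengths of all 10 members equalled those of R64.

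After rounding to whole numbers, expected counts entered the quasi-likelihood test of edgeR 4.0.16 in R 4.3.3, with filterByExpr, TMM and Benjamini-Hochberg adjustment over 5527 genes. TMM-normalized counts are counts divided by the library's effective size relative to the mean of the 4. The spike-in scale took as library sizes the S. pombe reads of the study's sequencing statistics. Within-letter values are log2 ratios of single libraries. Ratios used exact permutation tests. The method was tested on simulated data. Alternatives used DESeq2 1.42.0, other filters and scales, a replicate block and leaving out each library. The members and lists, and the rule for named genes (all members, and up to 2 of the highest and 2 of the lowest past the threshold in each list), were chosen with earlier results of these data known. The libraries of a group were not duplicates, with a chi-square of their counts per degree of freedom of 30.8 (DMSO) and 159 (thiolutin).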

Additional observations from a re-analysis of the deposited data

How the results depend on the processing

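On the TMM scale, 9 members were higher with the likelihood ratio test, DESeq2 size factors, the DESeq2 Wald test, upper quartile scaling and the replicate block, and 10 with no filter on low counts. With at least 50 counts in every library, 5 were higher. With library totals, 0 were higher. Between 80.8% and 86.6% of these totals was rRNA, so this scale sets the members largely against rRNA. The log2 fold change turned to -0.014 for LSR1, -0.083 for snR19, -0.110 for snR14, -0.180 for snR7-L and -0.062 for snR7-S. It turned to -0.237 for snR6, -0.036 for NME1 and -0.058 for RPR1, and was 0.318 for SCR1 and 0.265 for TLC1. Leaving out each library gave between 1 and 10 members higher on the TMM scale, and between 0 and 2 higher and 0 and 2 lower on the spike-in scale, the lone library being assumed to vary like the others. Over all genes, the TMM counts of higher and lower genes were 419 and 468 with at least 50 counts, 115 and 3644 with library totals, and 856 and 563 with the Wald test, against 1023 and 971. They lay between 368 and 1259 and between 442 and 1219 without single libraries. On the spike-in scale they were 35 and 392 with at least 50 counts, between 9 and 265 and between 143 and 4937 without single libraries, against 81 and 2804. With the reads not mapped to S. cerevisiae as library sizes, 102 genes were higher and 3924 lower. Of the members, 0 were higher and 0 lower. Their log2 fold changes then lay between -0.34 (snR6) and 0.23 (SCR1), with LSR1 at -0.11 and snR19 at -0.18. Counts per kilobase kept the rank of 5 of 10 levels.

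The a minus b differences of DMSO and of thiolutin had a correlation of 0.03 over 5527 genes. With a single difference per group, this cannot decide whether the letters mark paired libraries. The sources do not say that they mark a shared day. The replicate block gave 1069 higher and 941 lower genes on the TMM scale, 48 and 1393 on the spike-in scale, and a Pol III minus Pol II median of 0.004. It changed no call of a member.

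The lowest expected counts of any member were 382 for snR6 and 1137 for TLC1, both in thiolutin b, and the spread between libraries of a group exceeded counting error.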
